A study of Homo sapiens with 31 samples.

Results

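Glycolytic enzymes were followed here through 10 mRNAs, one per enzyme, in a study of the translation initiation factors eIF4A1 and eIF4A2 in a human cell line. The members were given by transcript identifier, and each was kept because its counted length was within 5 codons of the length of the enzyme minus 9. All 10 were found among 227264 listed transcripts, of which 100283 have a counted coding region, and all 10 passed the filter on low counts in every comparison. The rule uses identifiers and lengths and no measured value, although the enzymes were proposed with earlier results of these data known.

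The cells were HEK293 T-REx, human embryonic kidney cells built for inducible expression of an added gene. Ribosome profiling, which sequences the RNA fragments covered by ribosomes (footprints), was done on naive, EIF4A1 knockout (KO) and EIF4A2 KO cells. Each genotype had 2 DMSO libraries and 1 library at each PP242 dose, 1 µM and 10 µM, given for 30 min, 12 libraries in all. RNA-seq covered naive and EIF4A1 KO cells without a stated treatment, 2 libraries each. For the RNA pulldown, cells expressed eIF4A1 or eIF4A2 fused to a streptavidin-binding peptide (SBP), and RNA caught on streptavidin beads was sequenced beside the input; each protein had 2 libraries of either kind. Another SBP-eIF4A1 pulldown was made after 72 h of control siRNA (siControl; 2 inputs, 2 pulldowns) or LARP1 siRNA (siLARP1; 2 inputs, 1 pulldown). The labels name neither the disrupted allele nor the number of clones behind each KO line, and they do not say whether replicates were separate cultures, so p-values measure only the spread between these libraries. The EIF4A2 KO, SBP-eIF4A2 and RNA-seq libraries carry sample numbers from a block apart from those of the other libraries. A pulldown from cells without a tagged protein was not analysed here.

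Glycolysis breaks glucose down to pyruvate in the cytosol and yields ATP, and lactate dehydrogenase then turns pyruvate into lactate. Proliferating cell lines express most of these enzymes at high levels. eIF4A1 is the RNA helicase of the cap-binding complex eIF4F, eIF4A2 is its close paralog, and PP242 blocks the mTOR kinase, which controls the assembly of that complex. mRNAs that start with a 5′ terminal oligopyrimidine (TOP) tract, chiefly those of ribosomal proteins and elongation factors, are known to lose ribosomes when mTOR is blocked, and LARP1 binds such mRNAs.

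In the order of the pathway, the members were HK2 (hexokinase, which traps glucose in the cell as its phosphate; transcript ENST00000290573.6, 908 counted codons) and GPI (glucose phosphate isomerase; ENST00000356487.11, 549 codons). TPI1 (ENST00000396705.10, 240 codons) interconverts the triose phosphates. GAPDH (ENST00000229239.10, 326 codons) carries out the oxidation step, and PGK1 (ENST00000373316.5) makes the first ATP of the lower pathway. PGAM1 (ENST00000334828.6, 245 codons) moves the phosphate group, and ENO1 (ENST00000234590.10, 425 codons) removes water to form phosphoenolpyruvate. PKM (ENST00000319622.10, 522 codons) is pyruvate kinase, the ATP-making last step. LDHA (ENST00000422447.8, 323 codons) and LDHB (ENST00000350669.5, 325 codons) are the subunits of lactate dehydrogenase.

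Libraries were compared as CPM (counts scaled to a common library size), corrected with TMM factors within each assay. Footprint and RNA levels are thus relative to the other transcripts of a library. A rise or fall below means a change in that relative level, and a change in total translation would not show in it. After neighbouring transcripts with alike counts were reduced, ribosome profiling libraries held 2511148 to 6410885 counts, pulldown and input libraries 11880381 to 17628967, and RNA-seq libraries 19693742 to 21616253. EIF4A1 footprints were 2608 and 2699 CPM in naive cells and 512 and 601 CPM in EIF4A1 KO cells, and EIF4A1 RNA was 2072 and 2059 against 944 and 938 CPM. EIF4A2 footprints were 161 and 133 CPM in naive cells, 61.6 and 62.4 CPM in EIF4A2 KO cells, and 745 and 713 CPM in EIF4A1 KO cells. LARP1 was 228 and 222 CPM in the siControl inputs and 94.8 and 77.0 CPM in the siLARP1 inputs. The epithelial and mesenchymal markers KRT18 (26.6 to 193 CPM) and VIM (191 to 1604 CPM) were present in every library, whereas NEFM, a neuronal marker reported for this line, stayed at or below 2.16 CPM and the blood cell marker PTPRC at or below 0.194 CPM.

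The library labelled siLARP1 input replicate 2 stood apart from its partner. It held 1828 CPM of EIF4A1 and 1058 CPM of EIF4A2, against 3096 and 293 CPM in siLARP1 input replicate 1, and the inputs from SBP-eIF4A2 cells held 1852 and 1903 CPM of EIF4A1 and 988 and 1009 CPM of EIF4A2. The other inputs labelled SBP-eIF4A1 held 3096 to 3803 CPM of EIF4A1 and 293 to 390 CPM of EIF4A2. Its levels thus lay near those of the SBP-eIF4A2 inputs and against its label, while its LARP1 level was low, and the siLARP1 results below are given with it and then without it.

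Many transcripts held identical counts, so reads appear to have been counted in each transcript that contains them. The counting rule is not given in the sources used here, and near-identical copies could share reads with the members. PGK2, a testis form of phosphoglycerate kinase, received 58 to 167 footprints per library, 2.73% to 3.77% of the PGK1 count, but 0 or 1 count in RNA-seq. LDHAL6A, a lactate dehydrogenase copy, received 0.470% to 0.814% of the LDHA footprints and at most 0.0479% in RNA-seq. LDHC, the testis form of lactate dehydrogenase, stood at 0.506% to 0.954% of the LDHA footprints, at 0.789% to 1.58% in RNA-seq and at 0.357% to 3.41% in the pulldown and input libraries. GAPDHS, the sperm form of GAPDH, had 0 footprints in all 12 libraries but 188 to 244 counts in each RNA-seq library, 0.251% to 0.312% of the GAPDH count. The muscle enolase ENO3 stood at 0.558% to 1.62% of the ENO1 footprints, and the neuronal enolase ENO2 at 2.33% to 2.91%. In RNA-seq ENO3 stood at 0.0693% to 0.146% of the ENO1 count and ENO2 at 1.03% to 1.11%. In the pulldown and input libraries the ranges were wider, 0.0525% to 2.97% for ENO3 and 0.671% to 13.5% for ENO2. PGAM4, a near copy of PGAM1, was not matched by identifier and length and was left out. Reads that it may share with PGAM1 were not measured. Pseudogenes without a counted coding region hold no counts in the files, and their share in the members' reads was not tested. For PKM, a further transcript of equal length held 108% to 116% of the member's counts in the 31 libraries, and the files do not name which splice form each is.

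In naive cells the RNA of the 10 enzymes spanned 8.60 to 3716 RPKM. Levels are given as RPKM over the counted codons, as mean ± SD of 2 libraries. GAPDH was the most abundant at 3716 ± 4.67 RPKM in RNA-seq, followed by ENO1 (2622 ± 19.0), LDHB (2216 ± 48.1) and TPI1 (1862 ± 45.4). A middle group held PKM (946 ± 24.7), PGAM1 (692 ± 14.4), PGK1 (595 ± 0.691), LDHA (503 ± 4.18) and GPI (461 ± 22.9), and HK2 was last at 8.60 ± 0.753 RPKM, resting on 474 and 502 counts. In footprints the order was GAPDH (4750 ± 229), ENO1 (3963 ± 147), LDHB (3052 ± 9.40), LDHA (1457 ± 20.5), TPI1 (1364 ± 74.7), PKM (1272 ± 52.5), PGAM1 (1187 ± 4.91), GPI (1003 ± 54.3), PGK1 (670 ± 19.8) and HK2 (24.4 ± 0.0322). No 2 neighbours in either order overlapped in their library values. The 10 mRNAs together took 1.44% and 1.45% of RNA-seq counts and 1.87% and 1.94% of footprint counts in naive DMSO cells.

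**Figure D1:**
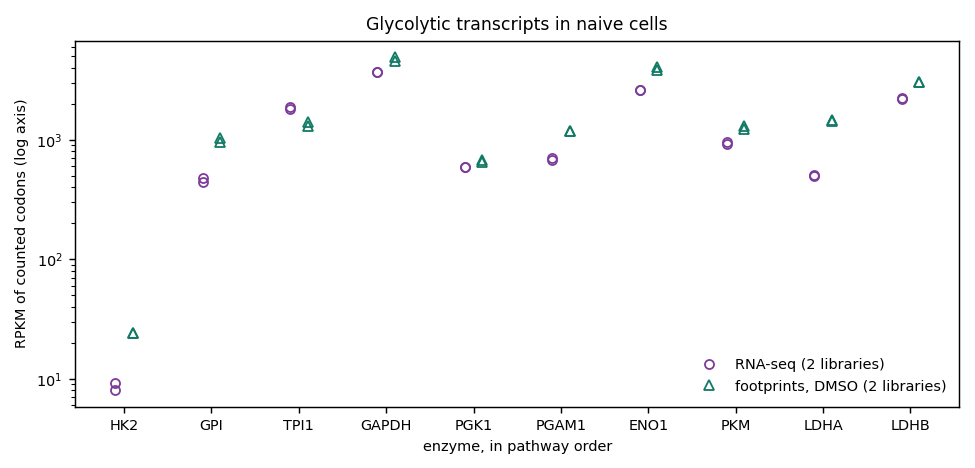
RPKM per counted codon length (log axis) of each enzyme in naive cells, in the order of the pathway; each point is 1 library, circles for RNA-seq and triangles for DMSO footprints. TPI1 is the enzyme whose footprint points lie below its RNA points, and HK2 lies far below the other 9 in both assays.

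The ratio of footprints to RNA differed between enzymes, so that the order changed between assays. LDHA and HK2 had the highest ratios in naive cells, with a log2 footprint level over RNA of 1.54 and 1.51, above 93.5% and 93.2% of 18469 transcripts, whose median was 0.05. GPI followed at 1.12, PGAM1 at 0.78, ENO1 at 0.60, LDHB at 0.46, PKM at 0.43, GAPDH at 0.35 and PGK1 at 0.17. TPI1, at −0.45, was below the median of all transcripts. The LDHA to LDHB ratio showed the same shift, with 0.222 and 0.232 in naive RNA and 0.474 to 0.481 in naive DMSO footprints. These ratios compare separately scaled assays, and their zero point is set by that scaling.

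EIF4A1 KO and naive cells were compared in both assays to ask whether glycolytic mRNAs change in amount or in ribosome load. RNA of 7 of the 10 enzymes fell and that of none rose, where 36.5% of all tested transcripts were called in this comparison and 18.4% were called lower. Without the filter on low counts, 8 enzymes were called, 1 of them higher. The median log2 change of the members was −0.22, against −0.00 over all transcripts. PGK1 changed most, from 728 and 729 CPM in naive cells to 489 and 524 CPM in EIF4A1 KO cells, a log2 change of −0.52 (SE 0.0327, adjusted p = 1.81e-14). LDHB (−0.31), LDHA (−0.30), GPI (−0.30), PGAM1 (−0.23), PKM (−0.21) and ENO1 (−0.18) fell by smaller amounts. GAPDH RNA was 3631 and 3637 CPM in naive cells and 3741 and 3816 CPM in KO cells, a log2 change of 0.06 that missed the threshold (adjusted p = 0.0581). TPI1 (−0.00) and HK2 (−0.14, adjusted p = 0.260) were not called either.

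Footprints of 8 enzymes fell in EIF4A1 KO cells in DMSO, beside 22.7% of all transcripts called and 11.9% called lower. PGAM1 changed most: it had 875 and 870 CPM in naive cells and 619 and 637 CPM in EIF4A1 KO cells, a log2 change of −0.47 (SE 0.0568, adjusted p = 1.23e-11). The KO values lay below both naive values for all 8. PGK1 and GPI followed at −0.27, then ENO1 (−0.23), GAPDH (−0.21), LDHA (−0.18), LDHB (−0.18) and TPI1 (−0.15, adjusted p = 0.0279). The TPI1 call was lost without naive DMSO replicate 2 (adjusted p = 0.316), without either EIF4A1 KO replicate (0.102 and 0.150), with the replicate block (0.0636), with the DESeq2 test (0.114) and with DESeq2 size factors (0.0505). LDHA was lost without EIF4A1 KO replicate 2 (adjusted p = 0.0667). PKM (−0.11) and HK2 (−0.30, adjusted p = 0.0549) were not called.

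Translation efficiency was tested as the footprint change left after the RNA change is taken off. It changed for 3 of the 10 enzymes, beside 9.48% of all transcripts called, 3.75% higher and 5.73% lower. It fell for GAPDH (log2 −0.28, SE 0.0519, adjusted p = 3.93e-05) and for PGAM1 (−0.26, SE 0.0623, adjusted p = 0.00243). For PGK1 it rose by 0.25 (SE 0.0624, adjusted p = 0.00346), since its footprints fell less than its RNA. The PGK1 call was lost without naive DMSO replicate 1 (adjusted p = 0.0791), without EIF4A1 KO DMSO replicate 2 (0.117) and without EIF4A1 KO RNA replicate 1 (0.0764). The members' median was −0.02, against −0.04 over all transcripts. The footprints came from DMSO cells and the RNA from cells without a stated treatment, so the 2 assays were not matched in condition.

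**Figure D2:**
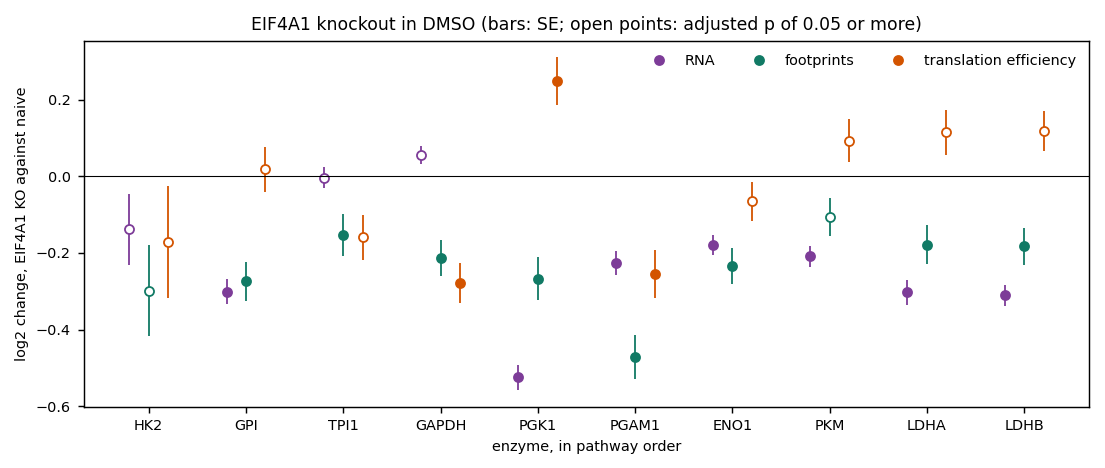
Log2 change in EIF4A1 KO against naive cells (vertical axis) of RNA, DMSO footprints and translation efficiency for each enzyme; bars are the SE, filled points passed an adjusted p under 0.05. RNA and footprints lie below 0 for most enzymes, and the PGK1 efficiency lies at 0.25 where those of GAPDH and PGAM1 lie at −0.28 and −0.26.

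In EIF4A2 KO cells only DMSO footprints can be compared, as RNA-seq of these cells was not analysed here. Footprints of 2 enzymes fell, beside 8.04% of all transcripts called and 4.32% called lower. GAPDH had 4102 and 4099 CPM against 4487 and 4804 CPM in naive cells (log2 −0.18, SE 0.0467, adjusted p = 0.00467), and HK2 had 54.8 and 50.2 against 66.5 and 66.3 CPM (−0.34, SE 0.104, adjusted p = 0.0221). Both calls were lost without naive DMSO replicate 2 (adjusted p = 0.152 and 0.135), and HK2 also without naive DMSO replicate 1 (0.0887), without EIF4A2 KO replicate 2 (0.261) and with DESeq2 (0.220). Set directly against EIF4A2 KO cells, EIF4A1 KO cells had fewer footprints on 6 enzymes, beside 22.6% of all transcripts called and 11.6% called lower: PGK1 (−0.37), PGAM1 (−0.32), GPI (−0.30), LDHB (−0.23), ENO1 (−0.22) and PKM (−0.17). Both knockouts were compared with the same naive libraries. The EIF4A2 KO libraries belong to a separate block of samples, so genotype and block cannot be told apart in comparisons with them.

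Other genes of sugar metabolism were taken from 26 transcripts: 12 further glycolytic enzymes and regulators, 2 carriers, 5 genes of pyruvate entry into mitochondria and 7 of the pentose phosphate branch. In EIF4A1 KO cells, 14 of the 26 fell and 3 rose at the RNA level, with a median of −0.16. Of all transcripts, 36.5% were called in this comparison and 18.4% were called lower. The phosphofructokinases, which catalyse the committed step, fell together: PFKL (−0.53), PFKP (−0.52) and PFKM (−0.37). The aldolases ALDOA (−0.14) and ALDOC (−1.63) fell too, and the glucose carrier SLC2A1 rose by 0.45. Among footprints 8 of the 26 fell and 2 rose, beside 22.7% of all transcripts called and 11.9% called lower. PFKP (−0.40), PFKL (−0.36) and ALDOA (−0.43) were among the falls.

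PP242 was used to ask how the enzymes' footprints respond when mTOR is blocked, and whether that depends on each eIF4A. The starts of the mRNAs are shown because a C followed by pyrimidines (C or T) at the first base defines a TOP mRNA. Sequences are from RefSeq (GRCh38.p14), gene strand, 5′ to 3′, with 10 bases before the start. Capitals mark the first transcribed base and, only where that base is itself a pyrimidine, the unbroken pyrimidines after it. Pyrimidines after a first A or G are left in lower case.
LDHA: ccagctcagaGtgctgcagccgctgccgcc
LDHB: ctcctccctcCTTgcagagccggcgccgga
ENO1: cggcgcggacAgtatctgtgggtacccgga
PGK1: cccgcgcggtGttccgcattctgcaagcct
HK2: tcaataagccAcattgttgcatgaaactcc
TPI1, first listed start: gcgactgcgcGcagacactgaccttcagcg
TPI1, second listed start: ccccagactcCTCCCCTTCCTCgccggcgt
EEF2: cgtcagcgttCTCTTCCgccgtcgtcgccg
RPLP0: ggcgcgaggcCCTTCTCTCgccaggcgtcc
They lie at chr11:18394553-18394582 (LDHA, plus strand), chr12:21657823-21657852 (LDHB, minus), chr1:8878667-8878696 (ENO1, minus), chrX:78104238-78104267 (PGK1, plus), chr2:74834117-74834146 (HK2, plus), chr12:6867521-6867550 (TPI1 first, plus), chr12:6868095-6868124 (TPI1 second, plus), chr19:3985444-3985473 (EEF2, minus) and chr12:120201092-120201121 (RPLP0, minus). EEF2 and RPLP0, an elongation factor and a ribosomal protein, are TOP mRNAs shown for comparison.

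A start counted as TOP-like here where its first base was C and at least 5 pyrimidines in a row began there, read on the gene's own strand. Of 35116 start windows in the RefSeq table, 4.07% met this. Among the 10 enzymes, 5 had a listed start at the outer end of the gene (LDHA, LDHB, ENO1, PGK1 and HK2), and 0 of these 5 were TOP-like. The 1 TOP-like start among the enzymes was the second listed for TPI1, with 12 pyrimidines, 685 bases inside the gene. The first listed for TPI1, 111 bases inside the gene, begins with G and was not TOP-like. The start listed for GAPDH lies 747 bases inside its gene, so the window does not show the outer start of the GAPDH mRNA. Of 12 TOP reference mRNAs, 10 were in the table and 8 of those were TOP-like. A match is a description of these letters, not of where transcription starts in HEK293 cells.

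Footprints on 7 of the 10 enzymes fell after PP242 in naive cells, beside 9.37% of all transcripts called and 5.70% called lower. GAPDH stood far from the rest: it had 4487 and 4804 CPM in DMSO, 1440 CPM at 1 µM and 2026 CPM at 10 µM. Both PP242 libraries lay far below both DMSO libraries. The log2 change over both doses was −1.42 (SE 0.0827, adjusted p = 7.40e-24).

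The other falls were smaller: LDHB (−0.45), PGAM1 (−0.41), GPI (−0.36), LDHA (−0.26), ENO1 (−0.22) and TPI1 (−0.21). LDHB, for example, had 2982 and 2969 CPM in DMSO and 2128 and 2230 CPM at 1 and 10 µM, with no overlap. PKM (−0.05, adjusted p = 0.674), PGK1 (−0.00, adjusted p = 0.983) and HK2 (0.14, adjusted p = 0.495) were not called. Both PP242 values of HK2 (75.3 and 69.6 CPM) lay above its DMSO values (66.5 and 66.3 CPM), and those of PKM and PGK1 lay on either side of a DMSO value. The 12 TOP reference mRNAs (9 ribosomal protein mRNAs, EEF1A1, EEF2 and TPT1) all fell, with a median of −1.99, so GAPDH lay nearer to that list than to the members' median of −0.24. The calls on ENO1, LDHA and TPI1 were lost without the 1 µM library (adjusted p = 0.0747, 0.162 and 0.121), and those on ENO1 and TPI1 also without DMSO replicate 2 (0.110 and 0.307). Fitted as a slope over a dose score (0 for DMSO, 1 for 1 µM, 2 for 10 µM), 0 of 10 were called in naive cells (GAPDH adjusted p = 0.0582), 0 in EIF4A1 KO cells and 1, GAPDH, in EIF4A2 KO cells. RNA libraries with PP242 were not analysed here, so a fall of footprints and a fall of RNA within 30 min cannot be told apart.

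**Figure D3:**
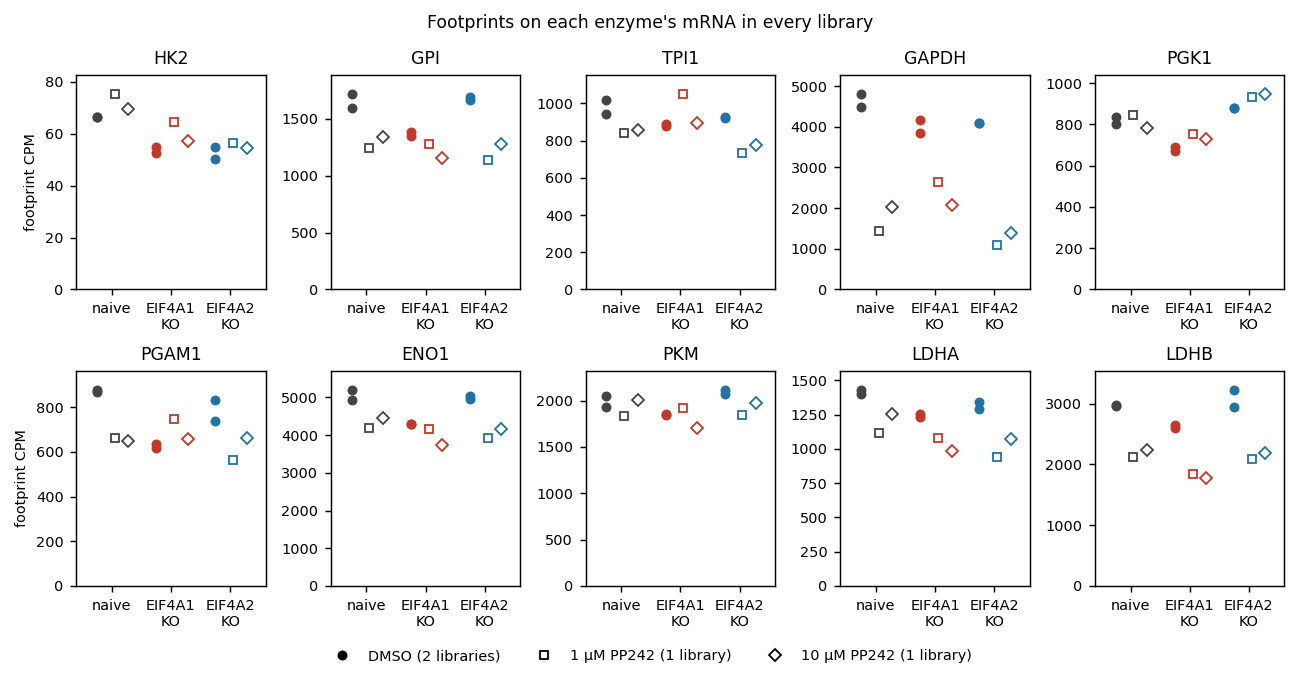
Footprint CPM (vertical axis, from 0) of each enzyme in all 12 ribosome profiling libraries, by genotype; filled circles are DMSO, open squares 1 µM and open diamonds 10 µM PP242, 1 library each. GAPDH drops in all 3 genotypes, to between 1099 and 2633 CPM, and the PGAM1 and TPI1 points drop in naive and EIF4A2 KO cells but not in EIF4A1 KO cells.

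In EIF4A1 KO cells PP242 lowered footprints on 3 enzymes, beside 6.02% of all transcripts called and 3.70% called lower. GAPDH went from 4159 and 3843 CPM in DMSO to 2633 CPM at 1 µM and 2069 CPM at 10 µM (log2 −0.77, SE 0.0815, adjusted p = 1.02e-11). LDHB (−0.53) and LDHA (−0.27) were the others, and the LDHA call was lost without DMSO replicate 1 (adjusted p = 0.0599) and without the 10 µM library (0.0973). PGAM1 (0.16, adjusted p = 0.176) and TPI1 (0.14, adjusted p = 0.204) were not called. Without the 10 µM library both were called higher (PGAM1 0.25, adjusted p = 0.0449; TPI1 0.25, adjusted p = 0.0219), and without the 1 µM library GPI was called lower (−0.24, adjusted p = 0.0366).

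In EIF4A2 KO cells the count was 7 of 10 lower, beside 11.7% of all transcripts called and 7.11% called lower. GAPDH went from 4102 and 4099 CPM to 1099 CPM at 1 µM and 1398 CPM at 10 µM (log2 −1.71, SE 0.0833, adjusted p = 4.13e-28). LDHB (−0.53), GPI (−0.47), LDHA (−0.38), PGAM1 (−0.35), ENO1 (−0.31) and TPI1 (−0.29) fell as well, each called in naive cells too. PGK1 (0.10), HK2 (0.08) and PKM (−0.13) were not called.

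The difference between genotypes was tested as a difference of PP242 responses. Against naive cells, the change in relative footprint level was higher in EIF4A1 KO cells for 3 of 10, beside 6.06% of all transcripts called and 3.61% called higher. These were GAPDH (difference in log2 change 0.66, SE 0.115, adjusted p = 4.54e-05), PGAM1 (0.57, SE 0.0945, adjusted p = 1.48e-05) and TPI1 (0.35, SE 0.0885, adjusted p = 0.00693). For GAPDH the changes at 1 and 10 µM were −1.69 and −1.20 in naive cells and −0.60 and −0.95 in EIF4A1 KO cells, so the 4 values did not overlap but the gap was narrow at 10 µM. At 10 µM the GAPDH levels themselves were 2026 CPM in naive and 2069 CPM in EIF4A1 KO cells, from DMSO levels that were lower in the KO. The difference for GAPDH was between 0.43 and 0.92 when 1 library at a time was left out, and it was not called by DESeq2 (0.64, adjusted p = 0.170). For PGAM1 the changes were −0.40 and −0.43 in naive cells and 0.25 and 0.07 in EIF4A1 KO cells. Its PP242 levels overlapped, with 660 and 648 CPM in naive and 747 and 657 CPM in EIF4A1 KO cells. The mean PGAM1 levels in DMSO were 872 CPM in naive and 628 CPM in EIF4A1 KO cells. TPI1 was lost without naive DMSO replicate 2 (adjusted p = 0.0915) and without the EIF4A1 KO 1 µM library (0.160).

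Against EIF4A2 KO cells the differences were called for GAPDH (0.95, SE 0.115, adjusted p = 5.49e-09), PGAM1 (0.51), TPI1 (0.43) and GPI (0.30, adjusted p = 0.0181), 4 of 10 beside 6.22% of all transcripts called and 3.70% called higher. The GPI call was lost without EIF4A1 KO DMSO replicate 1 (adjusted p = 0.103), without the EIF4A1 KO 1 µM library (0.173), without EIF4A2 KO DMSO replicate 1 (0.0654) and without the EIF4A2 KO 1 µM library (0.192). Between EIF4A2 KO and naive cells 0 of 10 differed by edgeR, beside 0.0683% of all transcripts. At an unadjusted p under 0.05 it was 1 of 10 (GAPDH, −0.29, adjusted p = 0.608), and DESeq2 called 0. The GAPDH difference was called without the naive 1 µM library (−0.52, adjusted p = 0.00240). LDHB and LDHA gave no call in any of these differences, with differences of −0.13 to 0.11. The TOP reference list gave a median difference of 0.47 between EIF4A1 KO and naive cells, with 8 of 12 called higher, and of 0.57 against EIF4A2 KO cells, with 12 of 12 called higher. These comparisons share libraries.

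**Figure D4:**
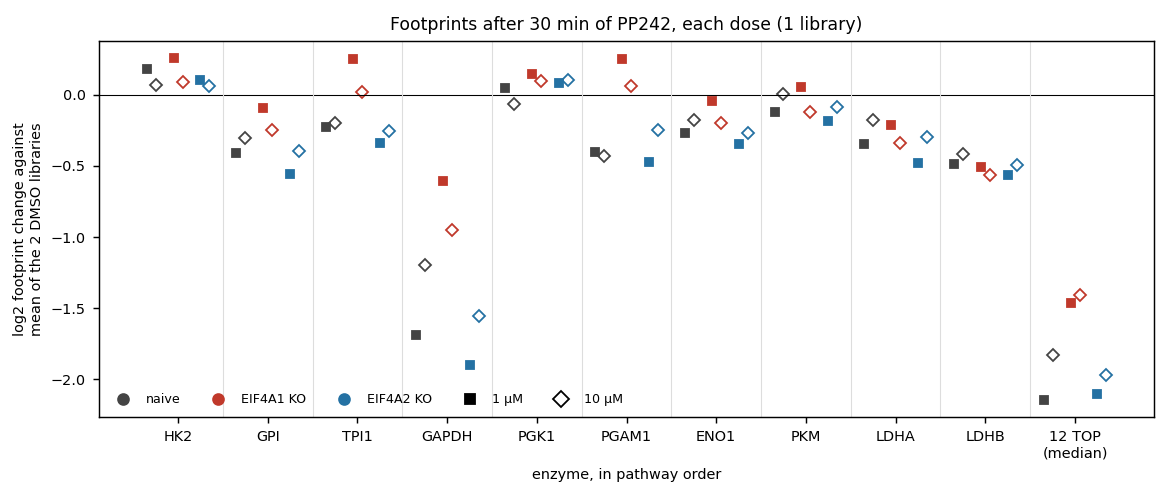
Log2 change of footprints at 1 µM (filled squares) and 10 µM PP242 (open diamonds) against the mean of 2 DMSO libraries, for each enzyme and for the median of the 12 TOP reference mRNAs, by genotype. GAPDH lies between −0.60 and −1.90, between the other enzymes and the TOP reference mRNAs, whose medians lie between −1.41 and −2.15.

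The pentose phosphate branch, which draws on glucose phosphate to make NADPH and ribose, was among the lists of related genes. In naive cells 10 of the 26 related transcripts fell after PP242 and 0 rose, beside 9.37% of all transcripts called and 5.7% called lower. Of those 10, 6 were on the list of 7 for the pentose branch, among them TKT (−0.91), PGLS (−0.87) and PGM1 (−0.70). Of these, PGM1 is a phosphoglucomutase, which links glucose phosphate to glycogen and is no enzyme of the branch itself. ALDOA, the aldolase of the main pathway, fell by 0.45 on the log2 scale. In EIF4A1 KO cells 3 of 26 fell and 1 rose, beside 6.02% of all transcripts called and 3.7% called lower. In EIF4A2 KO cells 10 fell and 1 rose, beside 11.7% of all transcripts called and 7.11% called lower. The difference between EIF4A1 KO and naive cells was called for 6 of 26, all higher, beside 6.06% of all transcripts called and 3.61% called higher. The 6 included ENO3 (1.44), TKT (0.65) and ALDOA (0.46). None of the 5 pyruvate entry genes was called in any of the 3 genotypes by edgeR.

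All 10 enzymes were less abundant in the SBP-eIF4A1 pulldown than in its input, where 55.4% of all transcripts were called and 26.7% were called lower. The members' median log2 ratio of pulldown to input was −1.16, against 0.04 over all transcripts. ENO1 was the lowest at −1.95 (SE 0.0482, adjusted p = 2.38e-14), from 2815 and 2751 CPM in the inputs to 716 and 720 CPM in the pulldowns. LDHA (−1.86), PKM (−1.54), GAPDH (−1.41), PGK1 (−1.20), LDHB (−1.12) and TPI1 (−0.88) came next. GPI (−0.68), HK2 (−0.47) and PGAM1 (−0.35) were the least depleted. Inputs and pulldowns did not overlap for any of the 10. The TOP reference list had a median of 0.63 in the same pulldown, with 9 of 12 higher and 2 lower.

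The SBP-eIF4A2 pulldown also held less of all 10, beside 59.8% of all transcripts called and 30.0% called lower, with a members' median of −1.66. LDHA (−2.55), ENO1 (−2.45) and GAPDH (−2.14) were lowest, and HK2 (−0.56) was least changed. GAPDH had 3587 and 3726 CPM in the inputs and 792 and 865 CPM in the pulldowns. The difference between the 2 proteins was called for 9 of 10, all toward eIF4A1, beside 15.7% of all transcripts called and 10.4% called higher. It was largest for TPI1 (0.77, SE 0.0799, adjusted p = 5.78e-06), GAPDH (0.74) and PGAM1 (0.73), followed by LDHA (0.69), LDHB (0.55), ENO1 (0.50), GPI (0.47), PGK1 (0.44) and PKM (0.40). HK2, with 0.09 (adjusted p = 0.722), was the exception. The tagged protein and a separate block of samples and cells cannot be told apart in this difference. The median difference was 0.53 for the members, 0.80 for the TOP reference list and 0.03 over all transcripts. These ratios are relative to the other RNAs of a library, and the amount of RNA recovered is not given in the sources used here.

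**Figure D5:**
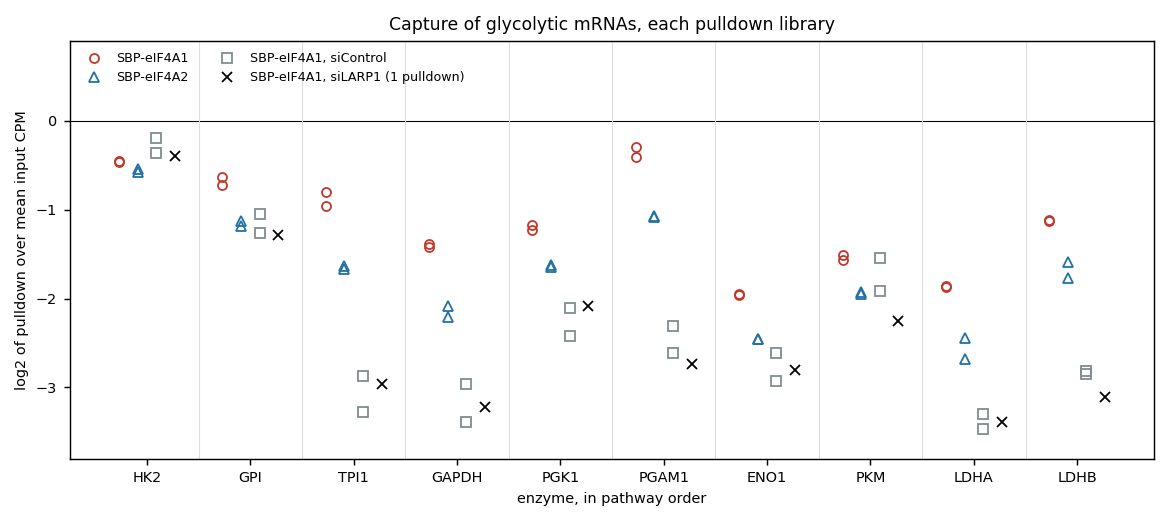
Log2 of each pulldown library's CPM over the mean input CPM for every enzyme: SBP-eIF4A1 (circles), SBP-eIF4A2 (triangles), SBP-eIF4A1 after siControl (squares) and after siLARP1 (cross, 1 library). All points lie below 0, and the eIF4A2 points lie below the eIF4A1 points for every enzyme, by least for HK2.

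The pulldown of SBP-eIF4A1 after control siRNA gave lower ratios for most enzymes than the pulldown without siRNA. It was called lower than input for 9 of 10, beside 49.3% of all transcripts called and 24.1% called lower, with a median of −2.61. LDHA (−3.38), GAPDH (−3.16) and TPI1 (−3.06) were lowest, and HK2 (−0.29, adjusted p = 0.272) was not called. GAPDH, for example, fell from 4854 and 5021 CPM in the inputs to 634 and 470 CPM in the pulldowns. The difference from the experiment without siRNA was called for 8 of 10, all lower, beside 50.2% of all transcripts called and 23.8% called lower: TPI1 (−2.12), PGAM1 (−2.05), GAPDH (−1.69), LDHB (−1.65), LDHA (−1.45), PGK1 (−1.0), ENO1 (−0.75) and GPI (−0.41). PKM (−0.12) and HK2 (0.24) were not called. GPI was lost without each of 5 libraries in turn, the 4 without siRNA and siControl input replicate 1, with adjusted p from 0.0543 to 0.122. The TOP reference list also moved down, by a median of −2.60. The siRNA and the separate experiment cannot be told apart in this difference.

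LARP1 knockdown was assessed in the inputs and, without a test, in the single siLARP1 pulldown. In the inputs 0 of 10 enzymes were called by edgeR, beside 0.517% of all transcripts (138). That share rested on single libraries: it was 0.0712% (19 transcripts) without the library labelled siLARP1 input replicate 2, and 18 transcripts were called without siControl input replicate 2. At an unadjusted p under 0.05 it was 2 of 10, GAPDH (−0.52, adjusted p = 0.152) and LDHB (−0.48, adjusted p = 0.191), and DESeq2 called 1, LDHB (adjusted p = 0.0447). GAPDH had 4854 and 5021 CPM in the siControl inputs and 3554 and 3326 CPM in the siLARP1 inputs, without overlap. The TOP reference list had a median of −0.53 in the inputs, with 12 of 12 below 0. Of these 12, edgeR called 1 and DESeq2 called 9. The members' median was −0.18, with 6 of 10 below 0. Without the library labelled siLARP1 input replicate 2, GAPDH was at −0.47 (adjusted p = 0.439) and LDHB at −0.54 (adjusted p = 0.331), and edgeR again called 0 of 10. DESeq2 without that library, tried after seeing the data, made no call on an enzyme, with LDHB at −0.57. HK2 received no adjusted p in that fit, so it could not be called there.

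The pulldown to input ratio after siLARP1 was below that after siControl for 8 of 10 enzymes, where 55.0% of all transcripts were below 0. The median difference was −0.08, against −0.05 over all transcripts, with a range from −0.54 (PKM) to 0.17 (PGK1). Without siLARP1 input replicate 2 the median was −0.16, against −0.04 over all transcripts, of which 53.4% were below 0, with 8 of 10 enzymes below 0 and a range from −0.47 (PGAM1) to 0.13 (TPI1). With that input alone it was −0.02, with 6 of 10 below 0. The siControl pulldown replicates themselves gave ratios of −2.96 and −3.39 for GAPDH, a wider gap than the median difference. The TOP reference list had a median of −0.38 with both inputs and of −0.32 without siLARP1 input replicate 2, with 12 of 12 below 0 in each.

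Across the 17 tested comparisons, the related transcripts that followed the members' median most closely were TALDO1 (a pentose branch transaldolase), ALDOA and DLD (a subunit of the pyruvate dehydrogenase complex). Likeness was measured as the root mean square difference of log2 changes from the members' median, which was 0.184 for TALDO1, 0.260 for ALDOA and 0.265 for DLD. The comparisons share libraries, so these values are a description of 26 candidates only.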

How the data were processed

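The authors deposited 1 table per library with raw read counts per versioned Ensembl transcript and, beside them, a counted coding length in another column, which the files do not name and which equals the protein length minus 9 for the members. The submitters' processing notes name CASAVA 1.8, STAR 2.7.0a and build hg38. The counting tool and the annotation release are not given in the sources used here. The members and gene lists were chosen with earlier results of these data known.

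Identical count vectors among 94734 transcripts with counts were collapsed to 77343. A transcript was then dropped where its log2 CPM (pseudocount 0.5) had a Pearson correlation of at least 0.9 with a kept transcript within 10 lines. All members and listed transcripts were retained, leaving 35498. No gene identifier was used, so a gene can keep more than 1 transcript, and the shares over all transcripts are not shares of genes. edgeR 4.0.16 in R 4.3.3 gave quasi-likelihood tests (TMM, filterByExpr with minimum count 10 and total 15, two-sided, Benjamini-Hochberg over all transcripts, called at an adjusted p under 0.05). SEs were computed as the log2 change over the square root of F. PP242 was tested as both doses against DMSO, 2 libraries against 2, in 1 fit of 12 libraries. The other fits held 4 RNA-seq, 6 DMSO, 8 RNA-seq with DMSO, 8 pulldown, 7 siRNA and 8 SBP-eIF4A1 libraries. The scripts were tested on simulated data. All 10 members were named. The related transcripts come from lists matched by identifier and kept within 5 codons of the known protein length minus 9. Those lengths were written from textbook knowledge because a protein table was not used here. Start windows were read from a RefSeq promoter table (GRCh38.p14). Alternatives were DESeq2 1.42.0, its size factors, no filter, all distinct transcripts, the replicate block, a dose score and leaving out each library. DESeq2 without siLARP1 input replicate 2 was added after seeing the data.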

Additional observations from a re-analysis of the deposited data

Results flagged for a closer look

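Each of the following differences between 2 groups was called by a test of the difference itself, with edgeR's quasi-likelihood test. In the response to PP242, EIF4A1 KO cells minus naive cells gave 0.66 for GAPDH, 0.57 for PGAM1 and 0.35 for TPI1 in log2 units. EIF4A1 KO minus EIF4A2 KO cells gave 0.95 for GAPDH, 0.51 for PGAM1, 0.43 for TPI1 and 0.30 for GPI. In all 7 the log2 change from DMSO was higher in EIF4A1 KO cells, which is a difference of responses and not of footprint levels. For GPI the PP242 levels overlapped, with 1280 and 1153 CPM in EIF4A1 KO and 1141 and 1278 CPM in EIF4A2 KO cells. The mean GPI levels in DMSO were 1365 and 1678 CPM. The PGAM1 levels under PP242 overlapped too, with 747 and 657 CPM in EIF4A1 KO cells. They were 660 and 648 CPM in naive and 565 and 662 CPM in EIF4A2 KO cells. The mean PGAM1 levels in DMSO were 628 CPM in EIF4A1 KO, 872 CPM in naive and 786 CPM in EIF4A2 KO cells. As given above, DESeq2 did not call the GAPDH difference from naive cells, and the GPI call was lost when single libraries were left out.

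In the pulldowns, eIF4A1 minus eIF4A2 gave 0.77 for TPI1, 0.74 for GAPDH, 0.73 for PGAM1, 0.69 for LDHA, 0.55 for LDHB, 0.50 for ENO1, 0.47 for GPI, 0.44 for PGK1 and 0.40 for PKM. The SBP-eIF4A1 pulldown after siControl minus that without siRNA gave −2.12 for TPI1, −2.05 for PGAM1, −1.69 for GAPDH, −1.65 for LDHB, −1.45 for LDHA, −1.0 for PGK1, −0.75 for ENO1 and −0.41 for GPI. With groups of at most 2 libraries, no group was large enough to look for a single sample far from the others.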

How the results depend on the processing

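None of the values tried changed sign while called. Of 980 values for single enzymes with 1 library left out, 933 stayed on the same side of the threshold or within the replicate spread, 29 lost and 11 gained a call and 7 moved; of 900 under the other alternatives, 866 stayed, 28 lost and 6 gained a call. Counts of enzymes called moved by over 1.5 times as follows. With the dose score they were 0 in naive cells (7 with both doses together), 0 in EIF4A1 KO cells (3), 1 in EIF4A2 KO cells (7), 0 for the difference of EIF4A1 KO from naive (3) and 0 for that from EIF4A2 KO (4). DESeq2 called 1 enzyme in EIF4A2 KO against naive DMSO footprints (2) and 1 in the siLARP1 inputs (0), and without the filter 1 differed between EIF4A2 KO and naive in the PP242 response (0). The cause was not tested. DESeq2 size factors moved the median of all transcripts by less than 0.1.

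With 1 library left out, the number of enzymes called was 7 to 7 for EIF4A1 KO RNA, 6 to 9 for its footprints, 0 to 3 for EIF4A2 KO footprints, 6 to 6 between the knockouts and 2 to 4 for translation efficiency. After PP242 it was 4 to 7 in naive cells (4 without the 1 µM library), 2 to 4 in EIF4A1 KO and 7 to 7 in EIF4A2 KO cells, and 2 to 3, 0 to 1 and 3 to 5 for the differences of EIF4A1 KO from naive, EIF4A2 KO from naive and EIF4A1 KO from EIF4A2 KO. In the pulldowns it was 10 to 10 for each protein, 9 to 9 for their difference, 9 to 9 after siControl, 7 to 8 for siControl against no siRNA and 0 to 0 for the siLARP1 inputs, and the siLARP1 median ranged from −0.22 to 0.00.

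Counts over all transcripts moved with the tool and with single libraries. DESeq2 called 5438 in EIF4A1 KO RNA (9391 by edgeR), 2206, 523 and 2266 in the DMSO footprint comparisons (4507, 1596 and 4488), 1131, 742 and 1411 after PP242 (1921, 1235 and 2399), 691, 7 and 764 for the response differences (1242, 14 and 1275) and 370 in the siLARP1 inputs (138). The dose score called 288, 0 and 448, and 2, 0 and 1 for the differences. Without the filter 28 and 401 were called for EIF4A2 KO minus naive (14) and the siLARP1 inputs (138). All distinct transcripts, a larger set, gave 26611 for RNA, 13443, 4696 and 13634 for DMSO footprints, 7223 for translation efficiency (2413), 6342, 3739 and 7791 after PP242, 3684, 56 and 3762 for the differences, 42029, 44799 and 13212 for the pulldowns and their difference (14731, 15903 and 4174), 37604 and 36861 for siControl (13173 and 13110) and 618 for the siLARP1 inputs. With 1 library left out, the counts for RNA, each pulldown against input and siControl against no siRNA stayed within 1.5 times. In DMSO footprints they fell to 2567 and 2660 for EIF4A1 KO against naive and EIF4A2 KO cells and to 1517 for translation efficiency, each without EIF4A1 KO replicate 1, and the first to 2912 without naive replicate 2. EIF4A2 KO against naive gave 786 and 852 without naive or EIF4A2 KO replicate 2. After PP242, naive cells gave 868 without the 1 µM library and 1026 without DMSO replicate 2. EIF4A1 KO cells gave 444, 724 and 726, and EIF4A2 KO cells 1516, 1589 and 1468, without DMSO replicates 1 and 2 and the 1 µM library. The response differences of EIF4A1 KO fell to 652 to 785 from naive and to 586 to 811 from EIF4A2 KO, without DMSO replicate 1 of either KO, naive DMSO replicate 2 or a 1 µM library, and EIF4A2 KO from naive gave 4 and 40 without the naive 10 and 1 µM libraries. The difference between the pulldowns gave 2376 to 2616 without any 1 input or SBP-eIF4A1 pulldown replicate 2, and 7835 and 6699 without SBP-eIF4A2 pulldown replicates 1 and 2.

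The labels do not say that replicate numbers mark a shared culture or day, and same-numbered libraries correlated in their deviations at −0.13 to 0.04 in 7 of 8 pairs of groups and at 0.47 between siControl inputs and pulldowns. With the replicate number as a block, 7 enzymes were called in EIF4A1 KO DMSO footprints (8 without it), and TPI1 was the call lost. No block was fitted to PP242 comparisons, with 1 library per dose. Depth limits HK2 most.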
